A study of Mus musculus with 8 samples.

Results

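Glycerol kinase was read by 2 of the 45101 probe sets on the array, 1422703_at and 1422704_at, and their signals are described here in livers of newborn mice with and without a working glycerol kinase gene. A probe set is a group of short probes for 1 stretch of a transcript. Both were chosen by their identifiers as those that the array's makers designed against glycerol kinase (symbol Gk, formerly Gyk). The annotation used here pairs 0 probe sets with Gk and gives no gene for these 2, so the assignment rests on the array's design and not on that annotation. They were also singled out because they stood far apart between knockout and wild type in earlier results of the same arrays. Their difference between the genotypes is therefore given as a description, with no test.

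Glycerol kinase is the enzyme that phosphorylates glycerol to glycerol 3-phosphate, with ATP as the phosphate donor. In liver this step lets glycerol that was released from stored fat enter gluconeogenesis, glycolysis and the synthesis of glycerolipids. The enzyme can sit at the outer mitochondrial membrane, on the voltage-dependent anion channels. Its gene lies on the X chromosome, so a male carries a single copy, and its loss in humans causes glycerol kinase deficiency, with high blood glycerol.

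Each of 4 knockout and 4 wild-type pups gave 1 liver, and each liver was hybridised to its own Affymetrix array. All pups were of the inbred C57BL/6J strain, were given as male and were taken on day of life 3. The knockout pups carry a targeted disruption of glycerol kinase, and the wild-type pups were their littermates of the same age. The sources used here do not give the part of the gene that was disrupted, nor where on the transcript the probes lie, so a signal left in the knockout does not show whether a transcript of the disrupted gene is made. What was measured is the brightness of each probe set, in linear units that the submitters brought to a target of 500 on every array.

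Whether the transcript read by both probe sets begins at the RefSeq start of Gk was not measured. The stretch before that start is shown for reference. It comprises the 250 bases upstream of the RefSeq start of Gk, at chrX:85776820-85777069 (GRCm38.p6, minus strand), written 5′ to 3′ with matches to the motifs searched in capitals.
Gk upstream: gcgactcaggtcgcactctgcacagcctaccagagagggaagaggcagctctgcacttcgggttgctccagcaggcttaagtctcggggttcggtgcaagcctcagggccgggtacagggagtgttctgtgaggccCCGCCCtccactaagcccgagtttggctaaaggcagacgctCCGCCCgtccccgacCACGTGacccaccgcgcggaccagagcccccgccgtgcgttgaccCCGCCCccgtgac
This window had a G and C content of 67.2%, against a median of 52.4% over 32851 upstream windows of the same length. On either strand it held 3 matches to the GC box GGGCGG, which reads CCGCCC on the strand shown and occurs in 32.7% of all windows. It held 1 match to the E-box CACGTG, found in 6.02% of windows and lying 58 bases upstream of the start. It held 0 matches to TATAAA (12.4% of windows), CCAAT (33.8%), TGACGTCA (1.55%), AGGTCA (14.0%) and the full palindromic glucocorticoid response element (0.00913%). No searched motif overlapped another in this window. A match is a match of letters only, and no measurement in these data bears on binding there.

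The tissue label was checked first. Of 10 hepatocyte markers fixed as a list, 8 had a probe set, all 8 were tested and 0 passed the threshold between the groups, beside 0.299% of all tested probe sets. Their summed signals were 123498 to 153510 in wild type and 140137 to 197077 in the knockout. Kidney and brown adipose tissue also use glycerol kinase. Of 5 kidney genes with a probe set, Umod, Slc12a1 and Slc34a1 stayed below a signal of 200 on all 8 arrays and the other 2 were tested. The signals of all 5 summed to 698 to 987 in wild type and 620 to 846 in the knockout. Of 5 brown fat genes with a probe set, Ucp1, Cidea and Adipoq stayed below 200 on all 8 arrays, 1 was tested and 0 were called. The summed signal of the brown fat list was nevertheless higher on every knockout array (491 to 1055) than on any wild-type array (397 to 446), and its part in the results was not tested. The array labelled wild type 4 carried signal of Xist, the RNA of the inactive X chromosome, at 10506 against 196 to 396 on the other 7 arrays, which goes against its label as male. Replicates 1 and 2 of both groups differed from replicates 3 and 4 in control probe sets, for example in the spiked BioB control (141 to 167 against 258 to 338). Knockout 1 had the highest 3′ to 5′ signal ratio of pyruvate carboxylase, a sign of RNA quality, at 7.03, against 2.06 to 4.93 on the other arrays. Its actin ratio was also the highest (1.74 against 1.21 to 1.32). Its transferrin receptor ratio was not (6.55 against 4.21 to 6.72).

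The signal of 1422704_at was 5189, 4214, 3935 and 3788 on wild type 1 to 4 and 237, 229, 314 and 367 on knockout 1 to 4. The signal of 1422703_at was 3034, 2752, 2694 and 2595 on wild type 1 to 4 and 111, 222, 210 and 153 on knockout 1 to 4. For both probe sets all 4 wild-type arrays were high and all 4 knockout arrays low, with no overlap. In a whole liver, fewer cells that hold a transcript and less of it per cell cannot be told apart. The lowest wild-type signal was 10.3 times the highest knockout signal for 1422704_at and 11.7 times for 1422703_at.

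**Figure D1:**
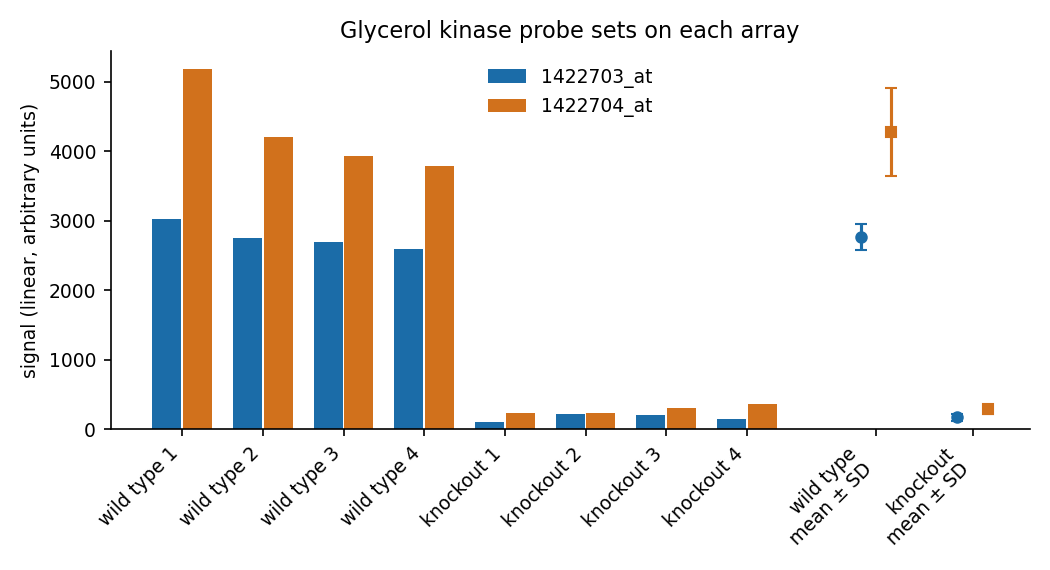
Signal of 1422703_at (blue) and 1422704_at (orange) on each of the 8 arrays, as bars on a linear axis in arbitrary units, with the mean ± SD of each group of 4 at the right. Every wild-type bar stands at 2595 or more and every knockout bar at 367 or less.

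The group means of 1422704_at were 4281 ± 630 in wild type and 287 ± 66.1 in the knockout, and those of 1422703_at were 2769 ± 188 and 174 ± 51.7 (SD, n = 4 each). On the scale of log2(signal + 16) the differences, knockout minus wild type, were -3.84 ± 0.18 for 1422704_at and -3.92 ± 0.20 for 1422703_at (limma SE). Of the 20395 probe sets tested, 61 (0.299%) passed an adjusted p under 0.05 and 1901 (9.32%) did not overlap between the groups. The rule that chose these 2 probe sets used this contrast, so nothing is read from their being among them. Among the tested probe sets 0 fell by more than both of them. Besides them, 3 fell by more than 3 on the log2 scale: a probe set of Car3, a carbonic anhydrase gene (-3.61), 1443505_at, which has no gene name (-3.11), and a probe set of Gbp6, a guanylate-binding protein gene (-3.03). These 3 are named because of their values.

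The difference was large in each part of the data. In replicates 1 and 2 it was -4.24 for 1422704_at and -4.07 for 1422703_at, and in replicates 3 and 4 it was -3.45 and -3.77. The change in the genotype difference from the first pair of replicates to the second was 0.79 ± 0.25 for 1422704_at and 0.30 ± 0.40 for 1422703_at (limma SE), given as a description with no test, since it comes from the contrast that chose the members and from knockout signals near background. Without the array labelled wild type 4 the differences were -3.90 ± 0.20 and -3.95 ± 0.23.

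The signal left in the knockout averaged 6.70% ± 1.54 of the wild-type mean for 1422704_at and 6.28% ± 1.87 for 1422703_at (SD over 4 knockout arrays). On knockout 1 to 4 the share was 5.54%, 5.34%, 7.34% and 8.58% by 1422704_at. By 1422703_at it was 3.99%, 8.0%, 7.59% and 5.53%. Knockout 2 was thus the lowest array by one probe set and the highest by the other, so the pair gave no common order of the 4 knockout livers.

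This remaining signal was set against several measures of background, since the deposited table holds no detection calls. Probes differ in how strongly they bind, so a position among other probe sets does not order transcripts by amount. On the wild-type arrays 1422704_at exceeded 96.2% to 97.4% of all probe sets and 1422703_at exceeded 94.2% to 95.1%. On the knockout arrays these shares were 59.8% to 68.0% and 43.1% to 59.1%, so the remaining signals lay in the middle of the range of each array.

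A list of 40 genes known from retina, lens, testis, pituitary, brain and other tissues gave 56 probe sets for 36 genes as a measure of signal from transcripts not looked for in liver. Their median was between 36.7 and 50.5 on the knockout arrays, and their 90th percentile was between 147 and 179. On knockout 1 to 4, 1422704_at lay above 53, 53, 56 and 56 of the 56. On the same arrays 1422703_at lay above 43, 52, 54 and 49 of them. Both probe sets thus read higher in the knockout than most of this list, and on every wild-type array both lay above all 56. The probe sets of the list that exceeded both on a knockout array were those of Prm1, a sperm protamine gene (747 on knockout 1), Gnat1, of rod photoreceptors (518 on knockout 1), and Pomc, a pituitary hormone gene (414 on knockout 1), chosen after their values were seen. With the list's median subtracted on each array, the share left was 5.72% by 1422704_at and 4.73% by 1422703_at.

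**Figure D2:**
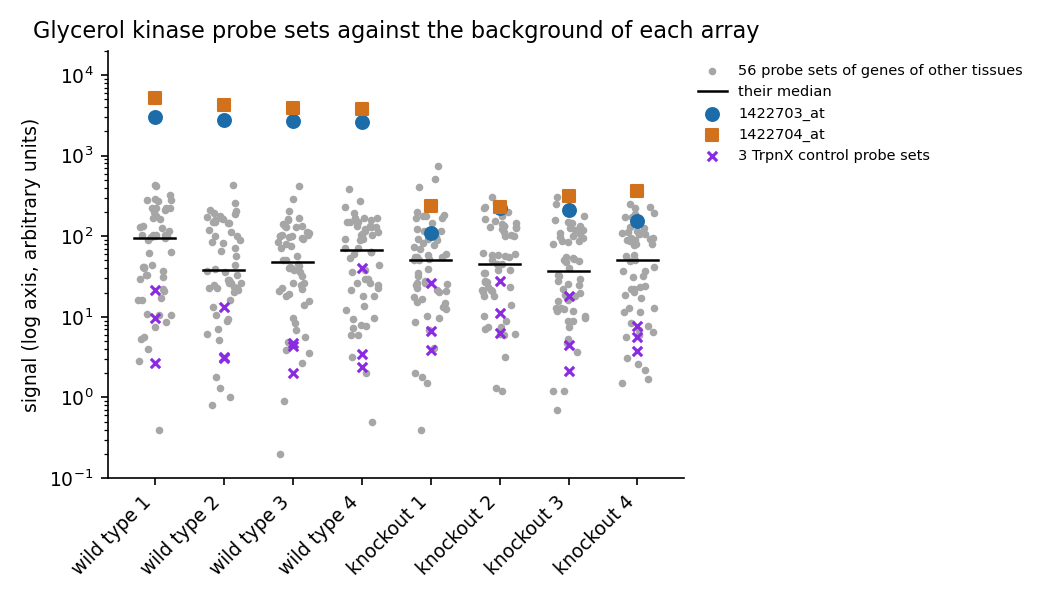
Signal on a log axis, in arbitrary units, on each array: 1422703_at (blue circles), 1422704_at (orange squares), 56 probe sets of genes of other tissues (grey points, with their median as a black line) and 3 TrpnX control probe sets (purple crosses). On the knockout arrays the members, at 111 to 367, lie within or just above the upper part of the grey points, whose medians are 36.7 to 50.5.

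Other floors on these arrays ranged widely. The 3 TrpnX control probe sets, for a bacterial transcript, read between 2.10 and 28.2 on the knockout arrays, below both members on each of them. A further comparison, chosen after the values were seen, was the Y-linked signal on the array labelled wild type 4. Of the Y-linked probe sets, 2 read at least 200 on the other 7 arrays. The probe set of Eif2s3y, a translation factor gene, read 1.30 there, 0.121% of the mean of wild type 1 to 3, and that of Uty, a histone demethylase gene, read 24.8, or 5.99%. The 3 probe sets of Xist, read the other way round, left 0.271% to 4.51% on the 7 arrays without it, and their floors there differed: 1427262_at read 3.8 to 60.4 and 1436936_s_at read 196 to 396, which is in the range of the members on the knockout arrays. The other 7 Y-linked probe sets were below 200 on at least 1 of those arrays, and 6 of them left 13.3% to 164% on wild type 4 and the other 0.146%. The share left for glycerol kinase lay within this spread. It was above the Uty value by both probe sets, but not by 1422703_at without knockout 2 (5.70%) or knockout 3 (5.84%). Each probe set has its own floor, so the members' own floor cannot be told from these.

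In wild type the pair of probe sets ranked the 4 livers in the same order, with wild type 1 highest and wild type 4 lowest. That order was also held by 1571 of the other 20393 tested probe sets (7.70%). The Dap control, a bacterial poly(A) RNA, had the same order too, at 3833, 2655, 1948 and 1735 on wild type 1 to 4, and the part of this in the wild-type order was not tested. The coefficient of variation over the wild-type livers was 14.7% for 1422704_at and 6.81% for 1422703_at. Among the 3472 tested probe sets with a wild-type mean of at least 2000, the median was 13.2%, and 57.8% and 14.9% of them varied less than these members. The one probe set thus varied about as much from pup to pup as other bright probe sets, and the other less than most of them.

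In the knockout the orders of the pair differed. The signal of 1422704_at over that of 1422703_at was 1.71, 1.53, 1.46 and 1.46 on wild type 1 to 4 and 2.14, 1.03, 1.5 and 2.40 on knockout 1 to 4. The ratio was thus nearly the same on the 4 wild-type arrays and spread more widely on the knockout arrays, where the signals are low. Over all 8 arrays, with each group's mean removed on the log2 scale, Pearson's r between the probe sets was 0.17 (exact permutation within groups, two-sided, p = 0.719) and Spearman's rho was -0.05 (exact permutation p = 0.920). Leaving out knockout 1 and knockout 2, the arrays farthest from the median of 1422703_at, r was 0.10. This r rests largely on the knockout arrays, whose signals are low: the deviations of 1422703_at from its group mean ran from -0.54 to 0.37 there and from -0.09 to 0.13 in wild type. In wild type the deviations of both probe sets ran in the same order, at 0.13, -0.01, -0.04 and -0.09 for 1422703_at and 0.29, -0.01, -0.11 and -0.16 for 1422704_at on wild type 1 to 4.

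Replicates 3 and 4 differed from replicates 1 and 2 by 0.12 ± 0.18 on the log2 scale for 1422704_at and by 0.02 ± 0.20 for 1422703_at (limma SE, group as a further term; adjusted p = 0.729 and 0.962). These values average the genotypes, which went opposite ways. For 1422704_at the log2 values were 12.35, 12.05, 11.95 and 11.89 on wild type 1 to 4. On knockout 1 to 4, near background, they were 7.98, 7.93, 8.37 and 8.58. The absence of a replicate difference within a genotype cannot be read from this fit. In that comparison 503 of 20395 probe sets (2.47%) were called. The sign for 1422703_at turned under other scalings, with values within 0.02 of 0.

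Of the other genes of this family, Gykl1 was not analysed here. Those examined were Gk2, whose transcript is known from testis, and Gk5, a more distant relative. Neither had a probe set that reached the signal minimum for testing, which was 200 on at least 4 arrays. Gk2 (1416694_at) read 66.1, 50.9, 37.7 and 20.2 on wild type 1 to 4 and 8.30, 9.50, 30.2 and 21.5 on knockout 1 to 4. Gk5 (1436210_at) read 9.60, 33.3, 37.2 and 7.5 on wild type 1 to 4 and 48.1, 94.7, 22.0 and 87.3 on knockout 1 to 4. The groups overlapped for both genes, and all 16 signals lay below the 90th percentile of the genes of other tissues on their array. On the scale of log2(signal + 16) the differences, knockout minus wild type, were -0.83 for Gk2 and 1.04 for Gk5, with no test at these low signals.

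The rest of the pathway was followed through a list of 40 other genes of glycerol handling. Of these, 36 had a probe set and 30 were tested, each by its brightest tested probe set. Over all probe sets tested, 1 rose (Abhd6) and 1 fell (Gpd2), beside 30 higher (0.147%) and 31 lower (0.152%) among all tested probe sets. The median log2 difference of the list was 0.10, with 19 of 30 above 0, against -0.03 and 45.8% over all tested probe sets. At an unadjusted p under 0.05 there were 12 of the 30, against 14.4% of all tested. The groups did not overlap for 8 of them, against 9.32% of all tested. The list takes the brightest tested probe set of each gene, while the shares over all tested probe sets include dimmer ones. The shares are therefore not like for like, and no excess in the list is read from them. Aqp10, Lipc and Gapdh were not analysed here.

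**Figure D3:**
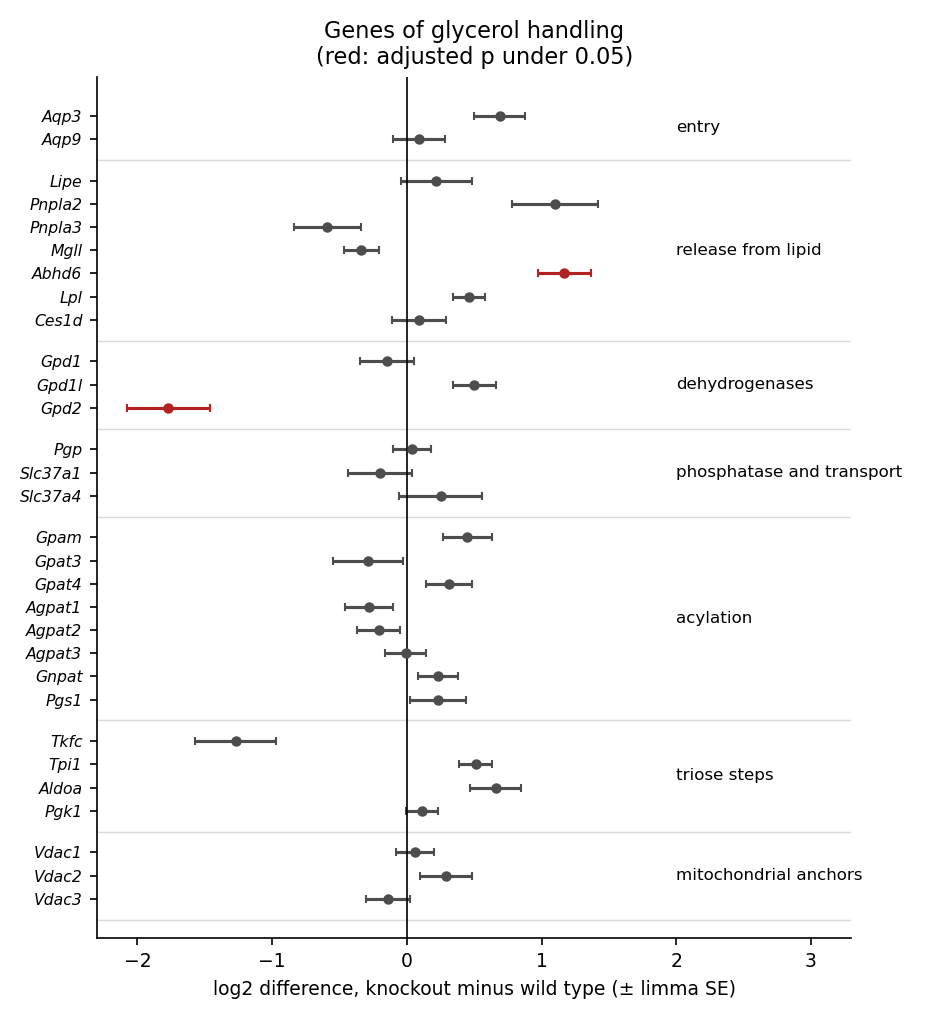
Log2 difference, knockout minus wild type, with limma's SE as bars, for the 30 tested genes of glycerol handling, grouped by step. Red marks the 2 genes past the adjusted threshold, Abhd6 at 1.17 and Gpd2 at -1.77, and the other 28 are grey.

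Of the channels through which glycerol enters cells, Aqp9, the main hepatocyte aquaglyceroporin, read 3606 to 5900 in wild type and 4439 to 6917 in the knockout, a log2 difference of 0.09 ± 0.19. Aqp3, another aquaglyceroporin, read 233 to 334 in wild type and 350 to 601 in the knockout (0.69 ± 0.19; limma adjusted p = 0.144). Its groups did not overlap, but the difference did not pass the threshold. Aqp7, the glycerol channel of fat cells, stayed below the minimum, at 47.2 ± 12.4 and 34.8 ± 8.34 (SD, n = 4).

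Among lipases that release glycerol or its acyl esters, Abhd6, a monoacylglycerol lipase, read 590, 863, 697 and 876 on wild type 1 to 4 and 2073, 2029, 1584 and 1244 on knockout 1 to 4. All knockout signals were above all wild-type signals, and the log2 difference was 1.17 ± 0.20 (limma adjusted p = 0.0466). Its other tested probe set stood at 0.42 and did not pass. Lpl, the lipoprotein lipase, had a difference of 0.46 ± 0.12 (adjusted p = 0.137) by its brightest probe set, without overlap, while its other probe set, 1431056_a_at, rose from 3486 to 3661 in wild type to between 5128 and 7529 in the knockout (0.78 ± 0.13; limma adjusted p = 0.0466). Pnpla2, which encodes the adipose triglyceride lipase, stood at 1.10 ± 0.32, with its highest signal on knockout 1 (4702) and overlapping groups. Mgll, the main monoacylglycerol lipase, stood at -0.34, Pnpla3 at -0.59, Lipe, the hormone-sensitive lipase, at 0.22 and Ces1d at 0.09, none past the threshold. Lipg was below the minimum.

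The call of Abhd6 was lost in 11 of the 18 alternatives tried for it, with log2 differences between 1.06 and 1.31 and adjusted p between 0.0203 and 0.169. Without wild type 1, 2, 3 or 4, or knockout 1, 2 or 3, it was not called.

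The glycerol 3-phosphate dehydrogenases use the product of the reaction that glycerol kinase carries out. Gpd2, the mitochondrial enzyme, read 972, 2302, 1409 and 2542 on wild type 1 to 4 and 320, 603, 491 and 575 on knockout 1 to 4. Every knockout signal was below every wild-type signal, and the log2 difference was -1.77 ± 0.31 (limma adjusted p = 0.0488). The other tested probe set of Gpd2 stood at -1.41 and did not pass. The cytosolic Gpd1 stood at -0.15 ± 0.20 and Gpd1l at 0.50 ± 0.16 (adjusted p = 0.198). The 3 tested probe sets of Gpd1 ran from -0.50 to -0.06, with 0 past the threshold. The call of Gpd2 was lost in 11 of 18 alternatives, with adjusted p between 0.0196 and 0.173 and log2 differences between -2.03 and -1.57. It was not called without wild type 2, 3 or 4 or knockout 1, 2 or 3, and without wild type 4 it stood at -1.57 (adjusted p = 0.103).

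The other uses of glycerol 3-phosphate gave 0 calls. Of the acylation genes, which begin glycerolipid synthesis, Gpam, the mitochondrial acyltransferase, stood at 0.45 ± 0.18 with groups that did not overlap. By their brightest tested probe sets, Gpat3, Gpat4, Agpat1, Agpat2, Agpat3, Gnpat and Pgs1 lay between -0.29 and 0.31. The 4 tested probe sets of Agpat3 ran from -0.01 to 0.77, with 0 past the threshold. Gpat2 was below the minimum. Pgp, a glycerol 3-phosphate phosphatase, stood at 0.04, Slc37a1, a sugar phosphate exchanger, at -0.20, and Slc37a4, the glucose 6-phosphate transporter, at 0.25. Slc37a2 was below the minimum.

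Among triose genes, Tkfc, which encodes the triokinase that phosphorylates dihydroxyacetone and glyceraldehyde, read 3804, 8674, 3326 and 3825 on wild type 1 to 4 and 1251, 2514, 1982 and 1957 on knockout 1 to 4. Its groups did not overlap, and its difference of -1.27 ± 0.30 did not pass (limma adjusted p = 0.103). Tpi1, triosephosphate isomerase, stood at 0.51 ± 0.12 and Aldoa, an aldolase, at 0.66 ± 0.19, both without overlap and neither past the threshold (adjusted p = 0.102 and 0.163). Pgk1 stood at 0.11 by its brightest probe set, and its 3 tested probe sets ran from 0.11 to 0.52, with 0 past the threshold. The channels Vdac1, Vdac2 and Vdac3, on which the kinase can sit, stood at 0.06, 0.29 and -0.14, with overlapping groups.

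The neighbours of Gk on the X chromosome were examined next. In the order of the RefSeq gene table, the 8 nearest genes with a tested probe set were taken on each side. Counted in protein-coding genes, they lay 1 to 32 away on 1 side and 22 to 32 away on the other. On that other side the genes closest to Gk had no tested probe set under their name, so they were not examined. Of these 16 genes 0 were called, beside 0.299% of all tested probe sets. By limma, 3 of the 16 had an unadjusted p under 0.05, against 14.4% of all tested. Each gene was again read by its brightest tested probe set, so these shares are not like for like either. Their median log2 difference was -0.15, with 4 of 16 above 0, against -0.03 and 45.8% of all tested probe sets. The nearest, Tab3, an adaptor of TAK1 kinase signalling and the protein-coding gene next to Gk, read 707 to 987 in wild type and 581 to 996 in the knockout, a difference of -0.08 ± 0.18. Dmd, the dystrophin gene, stood at -0.27 ± 0.15. On the other side the first tested gene was Pola1, the catalytic subunit of DNA polymerase alpha, 22 protein-coding genes from Gk. It stood at -0.55 ± 0.24 (limma adjusted p = 0.330). Tbl1x, a corepressor subunit, was the 1 gene of the 16 without overlap, beside 9.32% of all tested probe sets. It read 1879 to 2188 in wild type and 2371 to 3850 in the knockout (0.58 ± 0.18; limma adjusted p = 0.182). Eif2s3x, a translation initiation factor subunit, stood at -0.48 ± 0.17 (adjusted p = 0.240), with its highest signal on the array labelled wild type 4 (7591). The remaining genes, Tmem47, Prrg1, Prkx, Pls3, Vbp1, Pcyt1b, Pdk3, Zfx, Apoo, Maged1 and Zxdb, lay between -0.37 and 0.21 by their brightest tested probe sets. The other tested probe set of Zfx stood at 0.44 and did not pass.

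**Figure D4:**
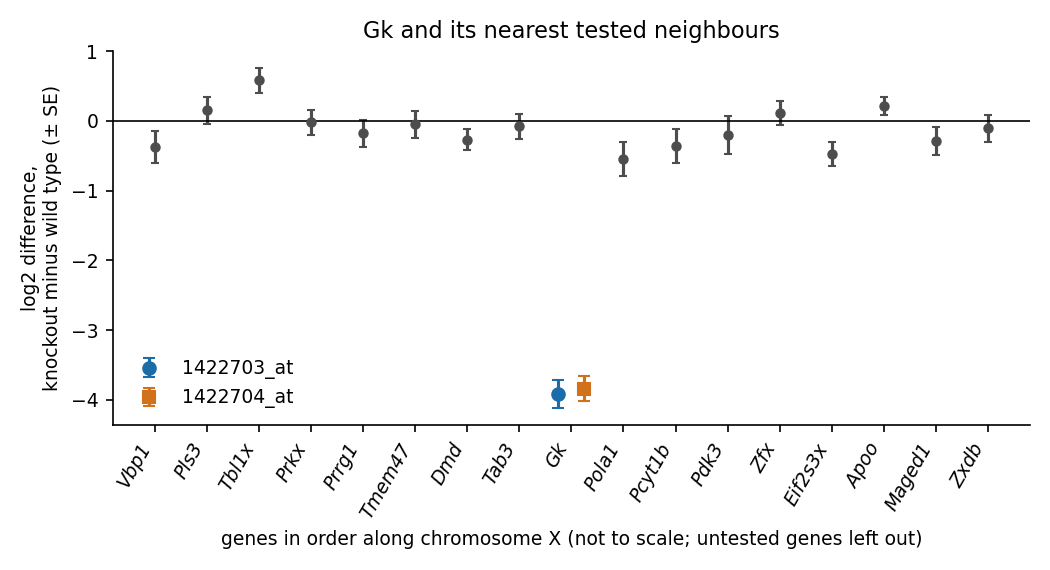
Log2 difference, knockout minus wild type, with limma's SE, for Gk (blue and orange, its 2 probe sets) and the 8 nearest tested genes on each side, in their order along chromosome X and not to scale. Untested genes are left out, and the nearest gene shown lies 1 protein-coding gene from Gk on 1 side and 22 on the other. The neighbours lie between -0.55 and 0.58, and the Gk probe sets at -3.92 and -3.84.

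Genes with a pattern like that of glycerol kinase were looked for in 2 ways, among 10878 genes represented by their brightest tested probe set. Over all 8 arrays, genotype difference included, the highest Pearson r with the mean log2 profile of the members belonged to Dnmt3b, a de novo DNA methyltransferase (0.99), Pxmp2, a peroxisomal membrane channel (0.99), AW112010 (0.98), Lamtor1, which anchors mTOR complex 1 signalling at lysosomes (0.98), Spns2, a sphingosine 1-phosphate transporter (0.98), Arrdc3, an arrestin domain protein (0.98), Slc35d2, a nucleotide sugar transporter (0.97), Nubpl, an assembly factor of respiratory complex I (0.97), Slc13a3, a dicarboxylate transporter (0.97), and Cav1, caveolin 1 (0.97). A gene resembles the members here when it is lower in all knockout livers with little spread within groups, so r does not reflect the size of the fall. Dnmt3b read 777 to 842 in wild type and 339 to 420 in the knockout, a log2 difference of -1.02 ± 0.13. Lamtor1 read 4387 to 4761 and 3441 to 3719, a difference of -0.35 ± 0.10. In all, 109 genes (1.0%) reached an r of 0.9.

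Within genotype, with group means removed, the genes with the highest r over the 8 arrays were Wdr76 (0.99), Add2, which encodes beta-adducin (0.98), Ranbp6 (0.97), Uba3, of the neddylation enzyme (0.97), the chaperone gene Hsp90aa1 (0.97), Rfc4, a clamp loader subunit of DNA replication (0.97), Fmr1, an RNA-binding protein gene (0.96), Fam98a (0.96), Klhl23 (0.96) and Fut4-ps1 (0.96). The lowest r was that of Rasgrp2 (-0.98), Cald1, caldesmon (-0.98), Hc, complement component C5 (-0.97), Cp, ceruloplasmin (-0.97), and Cd5l, a macrophage secreted protein (-0.96). Wdr76 read 699, 519, 540 and 502 on wild type 1 to 4 and 251, 398, 476 and 450 on knockout 1 to 4. Like the mean of the members, it was highest in its group on wild type 1 and lowest on knockout 1. Other probe sets of a gene could differ: of the 5 tested for Add2 the lowest r was 0.07.

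**Figure D5:**
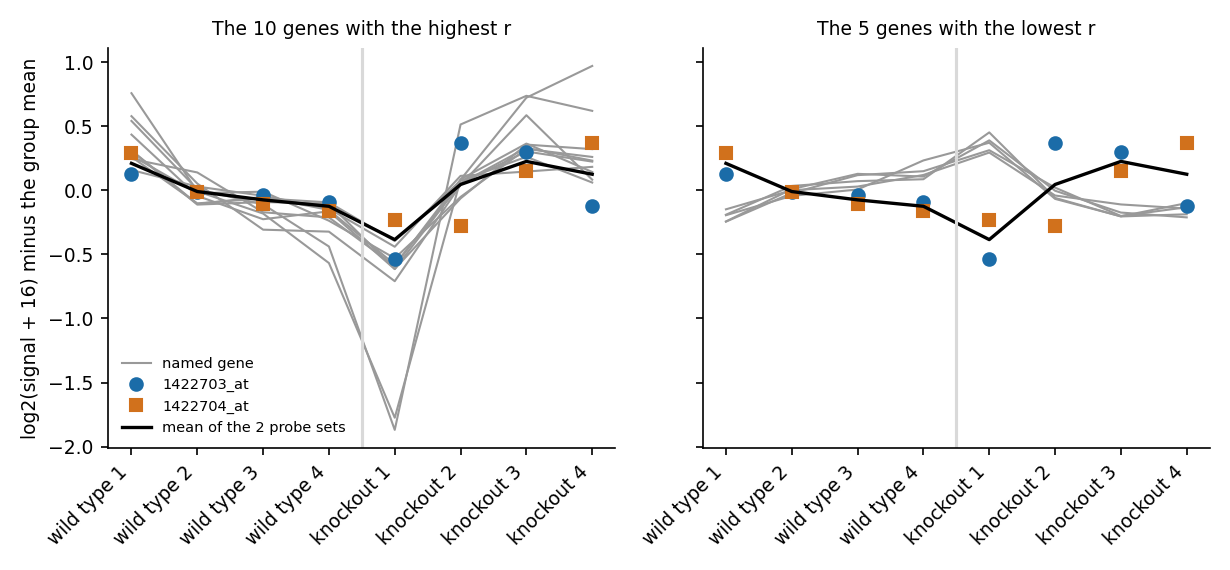
Log2(signal + 16) minus the group mean on each array for 1422703_at (blue), 1422704_at (orange) and their mean (black line), with the 10 genes of highest r (left) and the 5 of lowest r (right) as grey lines. The black line is highest on wild type 1 among the wild-type arrays and lowest on knockout 1 among the knockout arrays, and the grey lines follow it on the left and mirror it on the right.

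These correlations are a description over 8 arrays that share 2 groups, and 123 genes (1.13%) reached an r of 0.9 and 102 (0.938%) an r of -0.9 within genotype. They rest on the mean of 2 probe sets whose own r within genotype was 0.17. Deviations of 1422703_at ran from -0.54 to 0.37 on the knockout arrays, where signals are low, and from -0.09 to 0.13 in wild type. For 1422704_at they ran from -0.28 to 0.37 and from -0.16 to 0.29. Neither the correlations nor the fit below can tell the glycerol kinase level from variation near background. In a limma fit with the group and the members' group-centred mean as terms, 0 of 20393 probe sets passed an adjusted p under 0.05 (0.0%), and 2866 had an unadjusted p under 0.05. That outcome rested on wild type 1: without it, 651 probe sets were called, 503 rising with the members and 148 falling. Knockout 1 was the lowest array of the members' mean and had the pyruvate carboxylase ratio of 7.03, and the part of RNA quality in this was not tested. Among the 30 genes of glycerol handling, Aqp9 had the largest r in size within genotype, at -0.91 (limma adjusted p = 0.166), and 0 passed.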

How the data were processed

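Each liver gave 1 array. Per the labels, the authors computed the signal intensity with GCOS 1.2 and its default parameters, and set a scaling target of 500 using the whole array. The scaling was kept: in the deposited table every array has a mean of 500.0 once the top and bottom 2% are removed. The median signal ran from 147 to 175. Where nothing states separate cultures or litters, p-values measure only the spread between these livers. Gene names come from the platform annotation, brought up to date through the Entrez identifiers of a RefSeq table (GRCm38.p6). This gave 34945 of them 1 gene, 932 several and 9160 none, after 64 controls were left out. The upstream sequence is from RefSeq.

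Those that reached a signal of 200 on 4 or more arrays, 20395 in number, were tested on log2(signal + 16) with limma 3.58.1 in R 4.3.3 (lmFit, eBayes with an intensity trend, two-sided, Benjamini-Hochberg over all of them). 1422703_at passed this filter through the wild-type arrays: 2 of its 4 knockout signals reached 200. All 4 of 1422704_at did. The number of arrays limits the precision, and the median SE of a log2 difference was 0.19. Tables and figures used Python 3.11.15, pandas 2.3.3 and matplotlib 3.10.9, and the fits were tested on simulated data.

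The text names the members, Gk2 and Gk5 of the same family, every gene of the glycerol handling list, the 8 nearest tested genes on each side, and the genes of highest and lowest r (10 and 5 within genotype, 10 over all arrays). The members and lists were chosen with earlier results of these data known. Of 8 lists of cell type and tissue markers, 0 had a member past the threshold, beside 0.299% of all tested probe sets. With so low a share, 0 calls do not show that the cell content was the same. For erythroid cells, 6 of 8 genes had a probe set (summed signal 37109 to 45464 in wild type, 30881 to 46690 in the knockout), for Kupffer cells 6 of 6 (13896 to 19502, 14931 to 24183), for granulocytes 6 of 6 (55105 to 70414, 46542 to 65736), for kidney 5 of 6 (698 to 987, 620 to 846), for brown adipose tissue 5 of 6 (397 to 446, 491 to 1055), for adrenal cortex 4 of 4 (502 to 745, 491 to 831) and for pancreas 3 of 5 (723 to 1243, 832 to 2017). Same-numbered arrays of the groups are not stated to be paired, and no block was used in the main comparison.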

Additional observations from a re-analysis of the deposited data

Results flagged for a closer look

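In groups of 4 arrays, a signal was singled out when its gap to the nearest other array exceeded Dixon's 95% limit for the group's range. Of 110 groups examined, 3 had such a signal, and chance gives about 1 in 20 groups. None was a signal or ratio of the glycerol kinase probe sets. Tkfc, the triokinase gene, read 8674 on wild type 2 against 3326 to 3825 on the other wild-type arrays. Mgll, the monoacylglycerol lipase gene, read 2063 on wild type 3 against 2619 to 2698. Lipg, an endothelial lipase gene that was not tested, read 285 on wild type 1 against 122 to 150.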

How the results depend on the processing

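The log2 difference of 1422703_at moved by more than the spread between replicates under 1 setting, a pseudocount of 64 (-3.60), and that of 1422704_at under none of the 14 tried for each. With each array left out in turn they ran from -4.04 to -3.74 and from -3.96 to -3.75. The share left in the knockout ran from 5.70% to 7.04% for 1422703_at and from 6.07% to 7.21% for 1422704_at with an array left out, and kept within 1 SD in all 13 settings for each.

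Calls over all probe sets moved more: 30 higher and 31 lower became 8 and 13 with no signal filter, 63 and 48 with a minimum of 400, 4 and 14 without the intensity trend, and 103 and 81 with the pair of replicate numbers as a block. With that block and without wild type 4, a setting chosen after the data were seen, they were 103 and 51. With the arrays scaled to the same median, 17 were lower. Leaving out 1 array gave 0 to 211 higher and 2 to 123 lower (211 and 123 without knockout 4). With the replicate number as a block there were 26 higher and 30 lower, and the member differences were -3.92 and -3.84. Under this block Abhd6 was not called (limma adjusted p = 0.0849), and Gpd2 was called with a smaller SE (0.15; adjusted p = 0.0196). The labels do not say that the numbers pair the arrays. Deviations of same-numbered arrays correlated at 0.22, 0.40, 0.34 and 0.05 across probe sets, so 1 of the 4 was not above 0.1, and 2 of 4 wild-type arrays correlated best with their own number. The number of glycerol handling genes called higher (1) became 0 with the median scaling, no filter, no trend or the replicate block, and 2 with any probe set of a gene. The number called lower (1) became 0 with a pseudocount of 1, the median scaling, no filter, no trend, or the pair block without wild type 4. With an array left out, these counts were 0 to 2 and 0 to 1. The neighbours gave 0 calls in all 18 settings.

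The count of probe sets following the members within genotype became 1 with a minimum of 400, and 0 to 651 with an array left out. The correlation of the pair became -0.04 with the median scaling. The difference of 1422703_at between replicates became -0.01 with quantile normalization and -0.00019 with the median scaling. The cause of these shifts was not tested. Quantile normalization and blocks were not run for Gk2 and Gk5, which were not tested.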
